A study of Homo sapiens with 10 samples.

Results

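The genes described here are those that encode the proteins of the cytosolic ribosome. They were taken as every protein-coding gene of the GENCODE release 44 annotation whose symbol is RPL or RPS followed by digits, with an X, Y, A or L suffix allowed and the RPS6K kinases left out. The rule returned 83 of 20033 protein-coding genes. It returned 30 genes of the small subunit (RPS), 43 of the large subunit (RPL) and 10 paralogues, which are genes related to another member. The 2 members on chromosome Y, RPS4Y1 and RPS4Y2, could not be scored because no list held a peak there, so all counts are over the 81 members, of 19970 protein-coding genes, on chromosomes 1 to 22 and X. Chromosome 19 held 12 of the 83. The rule reads gene symbols and no measured value.

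A ribosome is built from ribosomal RNA and one copy each of a large number of ribosomal proteins, so the genes that encode them are transcribed at high and balanced rates in every growing cell. Their promoters typically start transcription at a cytosine inside a run of pyrimidines, which gives the mRNA a terminal oligopyrimidine (TOP) tract that couples its translation to mTOR signalling. The retinoblastoma protein Rb is best known as a repressor of E2F target genes of the cell cycle. CDK2 is one of the kinases that phosphorylate it and release it from E2F.

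Rb was mapped by CUT&RUN, in which an antibody held on the chromatin of unfixed permeabilised cells recruits a nuclease that cuts out the DNA around the target. OVCAR-3 and Kuramochi, wild-type established lines of high-grade serous ovarian cancer, were grown for 2 days with 300 nM INX-315, an inhibitor of CDK2, or with as much of its solvent DMSO. Each combination of line and treatment had 2 Rb libraries, and DMSO cells of each line had 1 control library made with IgG2a, an antibody with no target in the cell. The deposited values are peaks, stretches with more fragments than the local background, called in each library separately. Per the study's methods, the experiment was run once in each line and the 2 libraries of an arm are biological replicates.

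A member was counted in a library when a peak touched the region from 2000 bp upstream to 500 bp downstream of any of its annotated transcript starts. It was called bound under a treatment when this held in both replicates, and gained when it held in both INX-315 libraries and in neither DMSO library of that line. The Rb lists held 5221 to 8794 peaks under DMSO and 13031 to 17281 under INX-315, so a count of peaks under INX-315 was drawn from a longer list. Depth, read as the lowest background behind any peak, was 0.380 to 0.501 fragments per base in the DMSO libraries and 0.216 to 0.421 in the INX-315 libraries. Neither IgG2a library had a peak at a member promoter, and they had peaks at 3 and 1 of all protein-coding genes.

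Members were chosen for printing by their class, and the stretches show the start, any TOP tract there and whether the peak lies close by. Each runs from at most 260 bases before to 20 bases after the Ensembl canonical start, the annotated main start of the gene, in the human reference genome hg38, and is shorter where another gene's canonical start came first. Capitals mark the pyrimidine run of a TOP start and any match to the E2F, ETS, YY1, CRE or CHR strings given further on. Of the members with a peak in every Rb library, the 3 shown have high mean fold enrichment. They are RPL39L (chr3:187139477-187139756, minus strand), RPL41 (chr12:56116373-56116652, plus strand) and RPS16 (chr19:39435930-39436209, minus strand).
RPL39L: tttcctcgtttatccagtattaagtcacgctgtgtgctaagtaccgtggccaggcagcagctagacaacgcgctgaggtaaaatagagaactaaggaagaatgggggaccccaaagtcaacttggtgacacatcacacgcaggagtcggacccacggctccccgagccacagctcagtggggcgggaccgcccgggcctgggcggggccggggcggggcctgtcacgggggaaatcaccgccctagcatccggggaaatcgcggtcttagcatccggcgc
RPL41: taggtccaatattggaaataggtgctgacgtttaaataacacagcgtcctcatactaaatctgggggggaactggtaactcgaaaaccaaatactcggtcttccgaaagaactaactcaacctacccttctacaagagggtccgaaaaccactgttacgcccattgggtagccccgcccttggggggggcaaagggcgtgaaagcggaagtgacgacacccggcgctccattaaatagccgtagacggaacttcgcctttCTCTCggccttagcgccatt
RPS16: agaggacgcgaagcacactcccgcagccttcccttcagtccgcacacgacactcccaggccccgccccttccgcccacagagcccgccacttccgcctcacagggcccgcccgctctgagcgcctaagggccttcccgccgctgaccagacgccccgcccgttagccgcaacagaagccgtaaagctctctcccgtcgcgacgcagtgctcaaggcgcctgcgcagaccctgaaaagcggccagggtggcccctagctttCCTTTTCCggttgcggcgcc

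The stretch held the summit, the highest point of the peak, in all 8 libraries for RPS16, in 7 of 8 for RPL39L and in 5 of 8 for RPL41. RPL39L had no TOP start and no capitals at all.

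Of the members gained in both lines, the 3 with the highest mean fold enrichment were RPL27A (chr11:8682666-8682811, plus strand), RPL21 (chr13:27251298-27251577, plus strand) and RPL15 (chr3:23916991-23917151, plus strand).
RPL27A: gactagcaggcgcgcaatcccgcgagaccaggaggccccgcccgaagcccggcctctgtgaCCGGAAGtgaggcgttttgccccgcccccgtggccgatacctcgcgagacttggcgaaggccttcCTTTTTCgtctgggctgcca
RPL21: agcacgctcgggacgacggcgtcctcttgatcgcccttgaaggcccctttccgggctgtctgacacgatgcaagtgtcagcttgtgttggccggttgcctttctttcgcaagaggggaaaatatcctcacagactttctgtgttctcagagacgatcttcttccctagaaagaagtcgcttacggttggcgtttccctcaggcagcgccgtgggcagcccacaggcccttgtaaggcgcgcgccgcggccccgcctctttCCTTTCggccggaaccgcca
RPL15: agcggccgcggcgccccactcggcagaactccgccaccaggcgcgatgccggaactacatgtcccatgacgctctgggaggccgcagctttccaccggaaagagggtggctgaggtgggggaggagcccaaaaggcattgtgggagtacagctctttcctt

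The RPL21 stretch held all 4 of its summits, the RPL15 stretch held 1 of 4 and the RPL27A stretch held 0 of 4. RPL27A is cut 126 bases before its start, where TRIM66 begins in the other direction, and RPL15 is cut 141 bases before its start, where NKIRAS1 begins. RPL27A carried the ETS string CCGGAAG with its first base 65 bases before the start.

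Of the members with no peak in any library, the first in alphabetical order were RPL10L (chr14:46651762-46652041, minus strand) and RPL12 (chr9:127451387-127451509, minus strand).
RPL10L: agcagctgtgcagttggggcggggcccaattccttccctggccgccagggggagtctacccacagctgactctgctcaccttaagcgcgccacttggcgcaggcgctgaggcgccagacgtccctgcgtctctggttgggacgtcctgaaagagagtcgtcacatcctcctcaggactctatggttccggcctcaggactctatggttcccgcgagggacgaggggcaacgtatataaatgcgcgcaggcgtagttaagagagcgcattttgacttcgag
RPL12: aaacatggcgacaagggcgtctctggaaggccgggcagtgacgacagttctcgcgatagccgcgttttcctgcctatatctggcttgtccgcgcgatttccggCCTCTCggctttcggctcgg

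RPL12, which has a TOP start like most members, is cut at the start of LRSAM1 103 bases away. RPL10L, a retrotransposed copy of RPL10 used in the male germ line, has none.

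The first question was how much of the ribosomal protein set Rb occupied in cycling, DMSO-treated cells. In OVCAR-3, 15 and 23 of the 81 members had a promoter peak with DMSO, counted per library (18.5% and 28.4%), against 30.1% and 37.0% of all protein-coding genes. In Kuramochi, 20 and 33 members had one (24.7% and 40.7%), against 26.3% and 39.0% of all genes. The member share was thus 0.615 and 0.768 of the share over all genes in OVCAR-3, and 0.938 and 1.05 of it in Kuramochi.

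In OVCAR-3, 11 members (13.6%) were bound under DMSO, against 26.8% of all genes tested. In Kuramochi, 19 (23.5%) were bound, against 24.8% of all genes. Without replicate 1 of the DMSO libraries these counts were 23 in OVCAR-3 and 33 in Kuramochi, since a call then needed 1 library only. These are 28.4% and 40.7% of the set, against 37.0% and 39.0% of all genes. The 11 in OVCAR-3 were 4 small-subunit genes (RPS2, RPS16, RPS20, RPS29), 5 large-subunit genes (RPL7, RPL7A, RPL35, RPL39, RPL41) and the paralogues RPL26L1 and RPL39L. In Kuramochi there were 8 small-subunit genes, 10 large-subunit genes and 1 paralogue, RPL39L.

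The lines shared 8 members bound under DMSO, which is 9.88% of the set against 18.8% of all genes. A further 7 members (8.64%) were bound under DMSO in Kuramochi with no DMSO peak in either OVCAR-3 library, against 2.15% of all genes. They were RPL14, RPL18, RPL30, RPL37, RPS13, RPS21 and RPS27A, the last of which encodes a fusion with ubiquitin, and they are named because of this pattern. The reverse pattern was found in 0 members, against 2.72% of all genes. For RPL14, fold enrichment was 5.91 and 5.65 in the Kuramochi DMSO libraries. For RPS13 it was 3.92 and 9.28. Some of these calls were weak. In replicate 1 of the Kuramochi DMSO libraries, the peaks of RPS21 and RPS13 stood at percentiles 0.661 and 2.67 of the list. In replicate 2, that of RPL18 stood at percentile 14.4. At a q-value of at most 0.001, RPS21, RPS13 and RPL18 were not bound there, and the others were. Both DMSO summits of RPL18 and of RPS27A were closer to an annotated start of SPHK2 and CLHC1 than to an own start. For the others an own start was closer. All 7 had a peak in at least 1 INX-315 library of OVCAR-3, and 6 of them were counted as gained there.

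The second question was what INX-315 did at these promoters. In OVCAR-3, 47 and 62 members had a peak in the INX-315 libraries (58.0% and 76.5%), against 56.0% and 64.9% of all genes. In Kuramochi, 58 and 50 members had one (71.6% and 61.7%), against 59.8% and 55.2% of all genes. The means were 19.0 ± 5.66 members for DMSO and 54.5 ± 10.6 for INX-315 in OVCAR-3 (SD, n = 2 libraries). In Kuramochi they were 26.5 ± 9.19 and 54.0 ± 5.66 (SD, n = 2 libraries). Both INX-315 libraries were above both DMSO libraries in each line, for the members as for all genes.

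The counts were also taken in lists of equal length. When every library of a line was reduced to its 6162 (OVCAR-3) or 5221 (Kuramochi) best peaks, the length of the shortest list, the member counts were 15 and 18 with DMSO against 16 and 14 with INX-315 in OVCAR-3. In Kuramochi they were 20 and 16 with DMSO against 19 and 17 with INX-315. Member shares in OVCAR-3 were 18.5% and 22.2% with DMSO against 19.8% and 17.3% with INX-315. All genes had 30.1% and 31.2% against 32.8% and 33.1% there. Kuramochi had member shares of 24.7% and 19.8% against 23.5% and 21.0%. All genes had 26.3% and 27.2% against 28.7% and 28.5% in that line. Lists of equal length fix the number of peaks by construction, so they cannot show a general rise in it. The mean difference over both lines then changed from 31.5 to -0.750 members, so that the higher count under INX-315 was not seen in lists of equal length. It was seen under a stricter threshold on the q-value, 0.001, which again gave a difference of 31.5 members.

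**Figure D1:**
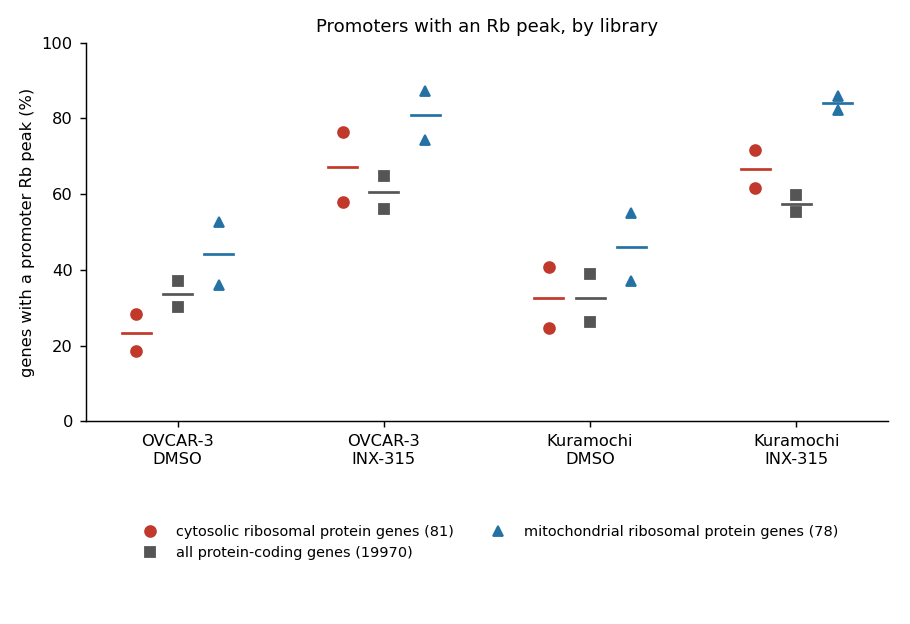
Percent of genes with a promoter Rb peak (vertical axis) in each of the 8 Rb libraries, by line and treatment, for the 81 cytosolic ribosomal protein genes (circles), all 19970 protein-coding genes (squares) and the 78 mitochondrial ribosomal protein genes (triangles); a point is a library and a line the mean of 2. The circles lie below the squares under DMSO in OVCAR-3 and above them in all 4 INX-315 libraries, and the triangles lie above the circles everywhere.

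The plot of shares by library also shows the genes of the mitochondrial ribosome, which carry MRPL and MRPS symbols and share neither gene nor promoter with the cytosolic set. Of these 78 genes, OVCAR-3 had a peak at 35.9% and 52.6% with DMSO and at 74.4% and 87.2% with INX-315. In Kuramochi the shares were 37.2% and 55.1% with DMSO against 85.9% and 82.1% with INX-315. The cytosolic share was lower than the mitochondrial share by 10.6 to 24.2 percentage points in the 8 libraries.

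Under INX-315, 46 members (56.8%) were bound in OVCAR-3, against 55.5% of all genes, and 48 (59.3%) in Kuramochi, against 53.2% of all genes. Both lines had 39 of them (48.1%), against 48.4% of all genes. By subunit, 16 of 30 small-subunit and 26 of 43 large-subunit genes were bound in OVCAR-3, and 17 of 30 and 27 of 43 in Kuramochi. With lists of equal length, OVCAR-3 had 12 members bound under INX-315 and Kuramochi 14, which is 14.8% and 17.3% of the set against 29.0% and 25.0% of all genes. At a q-value of at most 0.001, the order against all genes turned in OVCAR-3, with 50.6% of members bound under INX-315 and 53.3% of all genes. In Kuramochi the shares at that threshold were 51.9% and 49.8%.

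**Figure D2:**
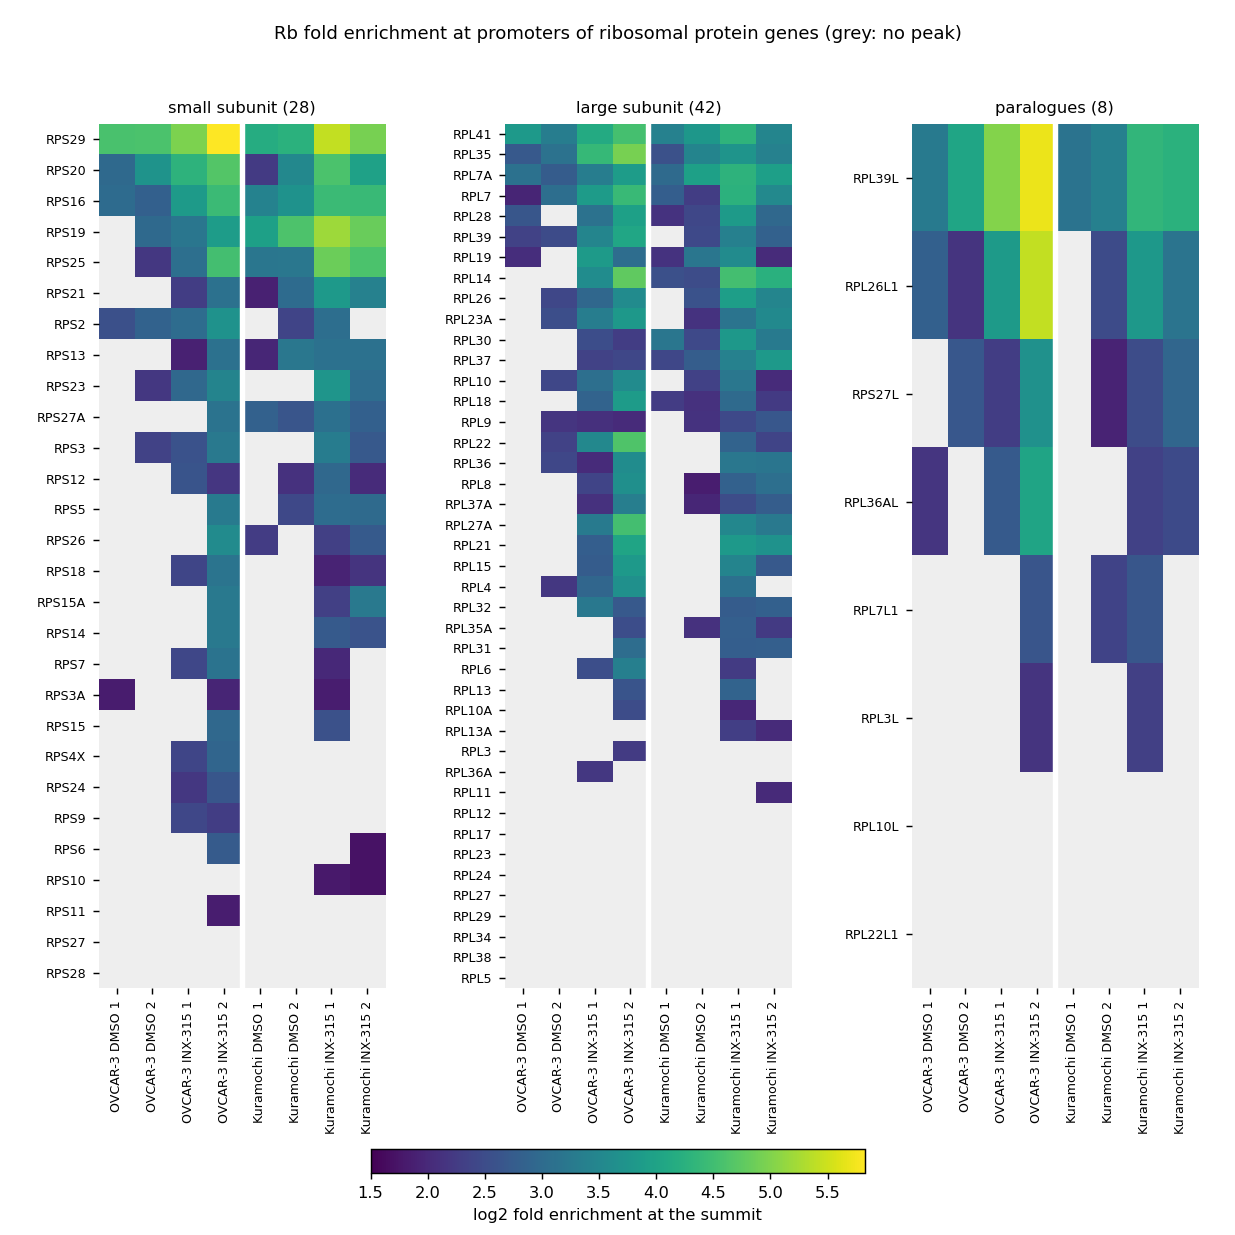
Fold enrichment of the promoter peak (colour, log2 scale) of each of 78 members (rows, grouped as small subunit, large subunit and paralogues and ordered by the number of libraries with a peak) in the 8 Rb libraries (columns, with replicate number); grey means that no peak was called. The 8 members with a value in every column lie at the top of each block, 13 members at the bottom are grey throughout, and most other rows are filled mainly in the INX-315 columns.

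The matrix of fold enrichment shows 78 of the 81 members in each library. Fold enrichment is the ratio of the signal at the summit to the local background, as the authors' peak caller wrote it. Peaks were called against the IgG2a library of the line, so this background is that of the control. A peak in all 8 libraries was found for 8 members (9.88%, against 18.8% of all genes): RPS16, RPS20 and RPS29 of the small subunit, RPL7, RPL7A, RPL35 and RPL41 of the large subunit, and RPL39L. These were also the 8 members bound under DMSO in both lines. For a single gene, 2 against 2 libraries in each of 2 lines allow 36 arrangements of the treatment labels, and the smallest two-sided exact permutation p is 0.0556, so no member could pass 0.05.

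RPS29, a small zinc-binding protein of the small subunit, had the highest value of the set in 6 of the 8 libraries, the exceptions being replicate 1 of INX-315 in OVCAR-3, where RPL39L was higher, and replicate 2 of DMSO in Kuramochi, where RPS19 was. Its fold enrichment was 23.9 and 24.1 with DMSO against 31.2 and 56.6 with INX-315 in OVCAR-3, and 18.1 and 19.1 with DMSO against 43.2 and 30.6 with INX-315 in Kuramochi. The treatment groups did not overlap in either line, with a mean difference of 0.89 on the log2 scale (1.85-fold, exact permutation p = 0.0556, n = 2 libraries per group). The summits lay 12702 to 12763 bp upstream of the canonical RPS29 start, in the promoter of another annotated RPS29 transcript, and 142 to 203 bp from the canonical start of LRR1, a substrate receptor of a ubiquitin ligase that acts on the replicative helicase. Within 2000 bp upstream of the canonical RPS29 start, a peak was called only in INX-315 replicate 2 of OVCAR-3. With canonical starts only, 7 members had a peak in all 8 libraries.

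RPL39L is the paralogue of RPL39 best known from male germ cells. Its fold enrichment was 9.74 and 16.4 with DMSO against 32.4 and 51.6 with INX-315 in OVCAR-3, and 8.81 and 10.4 with DMSO against 20.4 and 19.1 with INX-315 in Kuramochi. The groups were apart in both lines, with a log2 difference of 1.37 (2.58-fold, exact permutation p = 0.0556, n = 2 libraries per group). Its summits lay from 199 bp upstream to 103 bp downstream of its own canonical start in every library, and its peaks ranked between percentiles 73.0 and 96.1 of their lists. RPL39 itself, on chromosome X, had a peak in 7 libraries with fold enrichments of 5.08 and 5.63 with DMSO against 11.1 and 16.7 with INX-315 in OVCAR-3.

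Among the other small-subunit genes, RPS16 had 8.08 and 7.07 with DMSO against 14.5 and 21.7 with INX-315 in OVCAR-3. In Kuramochi it had 10.7 and 13.1 with DMSO against 21.9 and 21.5 with INX-315. The groups were apart in both lines, with a 2.07-fold mean difference (exact permutation p = 0.0556, n = 2 libraries per group). The local background at RPS16 was 8.65 to 9.67 times the lowest background of the library in OVCAR-3 and 2.05 to 2.49 times it in Kuramochi. Fold enrichment divides by that background, and its part in the difference between the lines was not tested. An annotated start of SUPT5H, a transcription elongation factor, was closer to the RPS16 summit than any RPS16 start in 7 of 8 libraries, whereas among canonical starts that of RPS16 was the closest in all 8.

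RPS20 had 7.86 and 13.2 with DMSO against 19.7 and 25.3 with INX-315 in OVCAR-3, and 4.73 and 11.4 with DMSO against 24.3 and 15.7 with INX-315 in Kuramochi. The groups were again apart in both lines, with a 2.42-fold mean difference (exact permutation p = 0.0556, n = 2 libraries per group). Its summits lay within 250 bp of its canonical start in all 8 libraries. Here the local background was 1.00 to 1.06 times the lowest one in OVCAR-3 and 3.83 to 8.20 times it in Kuramochi.

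Of the large-subunit genes, RPL7 had 3.86 and 8.35 with DMSO against 14.7 and 21.6 with INX-315 in OVCAR-3, and 6.95 and 4.88 with DMSO against 19.4 and 11.6 with INX-315 in Kuramochi. Its groups were apart in both lines, with the largest mean difference of the 8 members at 2.84-fold (exact permutation p = 0.0556, n = 2 libraries per group). Its summits lay 506 to 2038 bp upstream of its canonical start, and the canonical start of RDH10, a retinol dehydrogenase, was closer in all 8 libraries. The value of 3.86 rested on 5 fragments at percentile 1.45 of its list. That peak did not overlap the one in replicate 2 of the OVCAR-3 DMSO libraries, so the RPL7 difference mixes peaks at different places.

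RPL35, RPL7A and RPL41 were higher in both INX-315 libraries in OVCAR-3 but overlapped in Kuramochi. For RPL35 the Kuramochi values were 5.95 and 10.9 with DMSO against 13.4 and 10.6 with INX-315, after 6.52 and 8.77 against 21.1 and 30.7 in OVCAR-3 (exact permutation p = 0.111, n = 2 libraries per group). The canonical start of ARPC5L, a subunit of the actin-nucleating Arp2/3 complex, was closer to the RPL35 summit in 6 of 8 libraries. For RPL7A they were 7.94 and 15.6 against 19.6 and 15.3, after 8.64 and 6.79 against 10.1 and 14.9 in OVCAR-3 (exact permutation p = 0.111, n = 2 libraries per group). For RPL41, which encodes an unusually short peptide, they were 10.5 and 13.8 against 19.9 and 11.0, after 14.2 and 10.1 against 17.6 and 23.4 (exact permutation p = 0.167, n = 2 libraries per group).

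In all, 5 of the 8 members (62.5%) were higher under INX-315 without overlap in both lines, against 86.6% of the 3762 genes with a peak in all 8 libraries. The median difference was 1.10 on the log2 scale over the 8 members (2.15-fold) and 1.30 over the 3762 genes (2.46-fold). Without replicate 2 of the Kuramochi DMSO libraries, or without replicate 2 of its INX-315 libraries, all 8 of them were apart, against 93.7% and 93.1% of all genes so tested. They were also all apart when the summit was expressed in fragments as a multiple of the library's lowest background, against 97.1% of the 3532 genes with that value in every library.

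**Figure D3:**
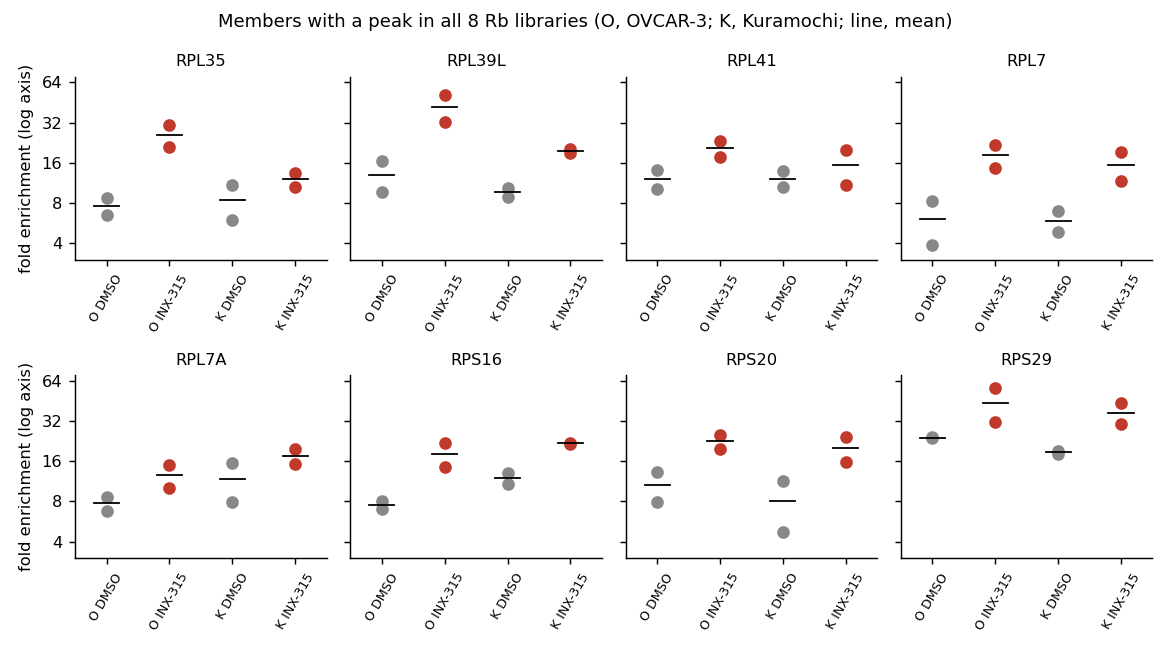
Fold enrichment at the summit (vertical log axis) of the 8 members with a promoter peak in all 8 Rb libraries, for OVCAR-3 (O) and Kuramochi (K) under DMSO (grey) and INX-315 (red); a point is a library and a line the mean of 2. Red lies above grey in both lines for RPL39L, RPL7, RPS16, RPS20 and RPS29, and the colours overlap in Kuramochi for RPL35, RPL41 and RPL7A.

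Members with no DMSO peak were followed next. In OVCAR-3, 20 of 54 such members (37.0%) were gained, against 27.1% of all genes with no DMSO peak there. In Kuramochi, 16 of 47 (34.0%) were gained, against 23.5% of all such genes. Of the mitochondrial ribosomal protein genes with no DMSO peak, 16 of 36 were gained in OVCAR-3 and 18 of 33 in Kuramochi. With the full lists, no member was lost in either line, a pattern that 1 gene of all showed in OVCAR-3 and 3 in Kuramochi. The gained count in OVCAR-3 was 32 without replicate 2 of its DMSO libraries and 35 without replicate 1 of its INX-315 libraries, and in Kuramochi it was 28 without replicate 2 of its DMSO libraries. Leaving out a library loosens the call for every gene, and the shares of all genes gained under these settings are not given. Lists of equal length left 2 gained members in OVCAR-3 (2.47% of the set, against 2.33% of all genes) and 1 in Kuramochi (1.23%, against 2.03%). With them, 1 member was lost in OVCAR-3 (1.23%, against 1.08%) and 3 in Kuramochi (3.70%, against 0.966%).

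Of the 40 members with no DMSO peak in either line, 6 were gained in both, against 10.8% of all such genes. They included the large-subunit genes RPL15, RPL21, RPL27A and RPL32 and the small-subunit gene RPS18. The INX-315 fold enrichments of RPL27A were 9.70 and 23.0 in OVCAR-3 and 11.3 and 9.46 in Kuramochi. Those of RPL21 were 6.89 and 16.2 in OVCAR-3 and 14.3 and 13.0 in Kuramochi. By comparison, the INX-315 values of the 8 members bound throughout ran from 10.1 to 56.6.

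RPL15 had 6.73 and 14.2 in OVCAR-3, then 10.9 and 6.50 in Kuramochi. RPL32 had 9.36 and 6.53, then 6.76 and 7.07. RPS18 had the lowest Kuramochi values of these, 3.82 and 4.43 after 5.31 and 8.93 in OVCAR-3. RPL21 and RPL32 had their own canonical start closest in all 4 libraries, whereas for RPL15, RPL27A and RPS18 the canonical start of NKIRAS1, TRIM66 and VPS52 was closer in all 4.

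A further 14 members (17.3%, against 10.6% of all genes) were gained in OVCAR-3 only and 10 (12.3%, against 8.41%) in Kuramochi only, and the difference between the lines was not tested. The 3 that ranked highest in their INX-315 lists were RPL14, RPS23 and RPL36. RPL14 stood at 12.1 and 27.2 in OVCAR-3 and was already bound under DMSO in Kuramochi, where INX-315 gave 23.2 and 18.9. RPS23, a protein of the decoding centre, stood at 13.5 and 8.22 under INX-315 in Kuramochi and had 1 DMSO peak in OVCAR-3. RPL36 stood at 9.25 and 9.05 in Kuramochi, with 4 of its 5 summits closer to the canonical start of another gene. Its summits lay as far as 9768 bp upstream of its own canonical start.

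The paralogues showed no common pattern. RPL26L1, the near-copy of RPL26, had a peak in 7 libraries, with 7.08 and 4.42 with DMSO against 14.5 and 42.9 with INX-315 in OVCAR-3, followed in Kuramochi by 5.63 in 1 DMSO library and 13.9 and 8.97 with INX-315. RPS27L, which p53 induces, had a peak in 6 libraries with fold enrichments of 3.82 to 12.9. RPL36AL, a copy of RPL36A, had one in 5 libraries at 4.51 to 16.3, and all 5 summits were closer to the canonical start of MGAT2. RPL7L1 had peaks in 3 libraries at 5.14 to 6.29. RPL3L, which replaces RPL3 in striated muscle, had 2 peaks at 4.44 and 5.00, 4948 and 4744 bp upstream of its canonical start and 99 and 105 bp from that of NDUFB10. RPL10L and RPL22L1 had no peak.

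No peak in any library was found for 15 members (18.5%), against 31.2% of all genes and 6.41% of the mitochondrial ribosomal protein genes. They included RPS27 and RPS28 of the small subunit, RPL5, RPL12, RPL17, RPL23, RPL24, RPL27, RPL29, RPL34 and RPL38 of the large subunit, and RPL10L and RPL22L1. RPL5 is one of the ribosomal proteins that bind and inhibit MDM2 when ribosome assembly fails. Its partner in that role, RPL11, had 1 peak, at 4.03 in replicate 2 of the Kuramochi INX-315 libraries. The absence of a peak says only that the signal did not pass the caller's threshold at this depth.

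Where the peaks lay set the members apart in description. Over the 8 libraries there were 308 member peaks, and 160 of them had the summit within 250 bp of the canonical start. In 90 (29.2%) the canonical start of another protein-coding gene was closer to the summit than the member's own. Against any annotated start, the share with another gene's start closer was 25.0% to 33.3% for members and 14.7% to 18.5% for all genes with a peak. Median summit positions were 118 to 198 bp upstream of the nearest own start for members in the 8 libraries, and from 23 bp upstream to 5 bp downstream for all genes.

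**Figure D4:**
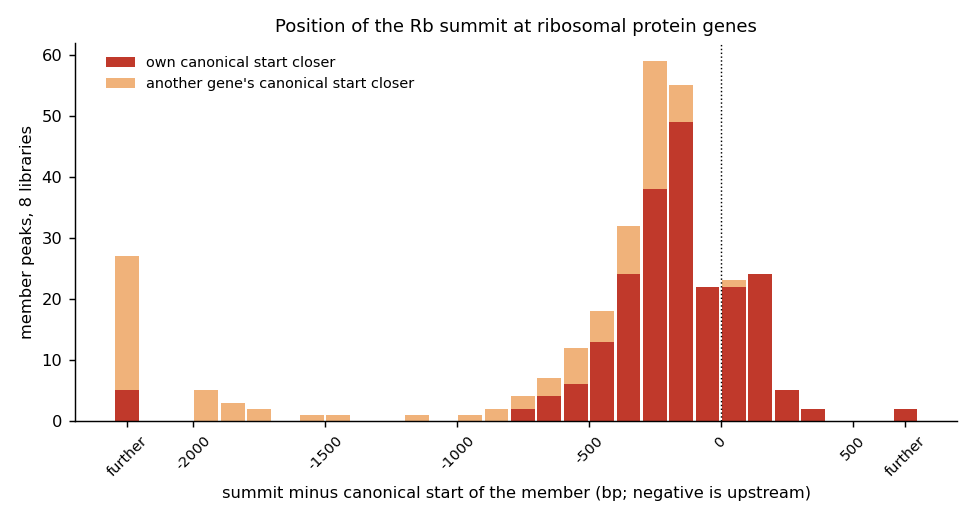
Number of member peaks over the 8 Rb libraries (vertical axis, 308 in all) by position of the summit against the member's canonical start (horizontal axis, bp, negative upstream, 100 bp bins), split by whether the member's own canonical start (red) or another gene's (orange) was closer; the outer bars hold peaks beyond the range. Most summits lie upstream of the start, and the bar for peaks more than 2000 bp upstream is mainly orange.

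The histogram of summit positions holds members of 3 kinds. For 44 of the 66 members with any peak, the own canonical start was the closest in every library with a peak. For 11, another gene's was closer in every library: RPL4, RPL6, RPL7, RPL7A, RPL15, RPL27A, RPL28, RPL36AL, RPL3L, RPS18 and RPS29. The other 11 varied between libraries. The closest start was not always near. RPL10, one of the 44, had its summits 454 to 8080 bp upstream of its canonical start. Of the 66, 23 had the summit within 250 bp of the canonical start in every library with a peak. RPL28 had its summits 869 to 1920 bp upstream and closer to TMEM238 in 7 of 7 libraries, and RPL6 had them 9391 to 9592 bp upstream, close to PTPN11, in 3 of 3. RPL7A had MED22, a Mediator subunit, closer in 8 of 8 libraries.

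When only peaks whose nearest annotated start, canonical or not, belonged to the member itself were counted, the mean difference between INX-315 and DMSO was 22.8 members. OVCAR-3 then had 7 members bound with DMSO (8.64%, against 21.1% of all genes) and 30 with INX-315 (37.0%, against 45.2%), so that the share under INX-315 was below that of all genes. Kuramochi had 13 of the 81, against 19.4% of all genes, and 33 (40.7%, against 43.1%). The members left with such a peak in all 8 libraries were RPL39L, RPL41, RPS20 and RPS29, the last through its non-canonical start. Of these 4, 3 (75.0%) were higher under INX-315 without overlap in both lines, against 87.3% of all genes so tested. This count was added after the data were seen.

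Of the 81 members, 14 are head-to-head with another protein-coding gene, with starts at most 1000 bp apart. Under DMSO, 3 of these 14 were bound in OVCAR-3 and 6 in Kuramochi, and under INX-315 11 were bound in each line. Of the 67 other members, 8 in OVCAR-3 and 13 in Kuramochi were bound with DMSO, and 35 and 37 with INX-315. Over all genes, 52.2% and 51.8% of head-to-head promoters were bound under DMSO in OVCAR-3 and Kuramochi, against 24.1% and 22.0% of the rest. Under INX-315 these shares were 86.6% and 87.2% of head-to-head promoters and 52.2% and 49.6% of the rest, where the members had 78.6% in each line and then 52.2% and 55.2%.

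Member peaks also ranked lower within their lists. The median member peak stood at percentiles 35.5 to 51.1 of its list by p-value, whereas the median promoter peak of all genes stood at percentiles 54.4 to 63.9. In median fold enrichment, members were at 5.63 to 10.2 and all genes at 6.76 to 15.7 across the 8 libraries, with the members lower in each. RPS19, named after its values were seen because of its rank, was an exception in Kuramochi. This small-subunit protein, mutated in Diamond-Blackfan anaemia, had 15.6 and 24.6 with DMSO against 36.3 and 28.5 with INX-315 in that line. In OVCAR-3 it had 7.86 in 1 DMSO library and 9.18 and 14.9 with INX-315.

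The letters of the promoters were searched in the 300 bases from 250 before to 50 after each canonical start. A TOP start, taken as C followed by at least 4 pyrimidines, was present in 55 of 81 members (67.9%) and in 4.59% of all protein-coding genes. An E2F string (TTTCCCGC, TTTCGCGC, TTTGCCGC or TTTGGCGC, either strand) was present in 4 members (4.94%), RPL7A, RPL23A, RPL36 and RPS20, against 4.37% of all genes. RPL7A and RPS20 were among the 8 members with a peak in every library, and the matching share over all genes was not counted. The RPL7A summits lay 231 to 954 bp upstream of its canonical start, mostly outside the searched bases.

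The ETS string CCGGAAG was present on either strand in 29 members (35.8%), against 14.1% of all genes, and the YY1 string AAGATGG in 15 (18.5%), against 6.42%. The ETS string was found in 0 of the 8 members with a peak throughout, in 27 of the 58 with a peak in 1 to 7 libraries and in 2 of the 15 with none. The matching split over all genes was not counted. For RPL7 and RPS29, which are among the 8 members with a peak throughout, the summits lay outside the searched bases in every library. The CRE string TGACGTCA was in 3 members (3.70%, against 2.69%) and the CHR string TTTGAA in 9 (11.1%, against 11.5%). The CCAAT box of NF-Y was in 24 (29.6%, against 7192 of the 19970 genes), the SP1 string GGGCGG in 49 (60.5%, against 61.3%) and TATAAA, on the coding strand only, in 4 (4.94%, against 7.12%). The median number of CpG was 25.0 in members and 23.0 in all genes, and 19.0 in the 15 members with no peak.

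Genes that work with the ribosome were counted beside the set. Of 14 translation factors and partners with TOP mRNAs, OVCAR-3 had 6 bound with DMSO (42.9%) and 11 with INX-315 (78.6%). Kuramochi had 11 (78.6%) and 13 (92.9%) in the same order. EEF2, the elongation factor of translocation, was the one of the 14 with no peak in any library. Of 20 ribosome biogenesis genes, which act in rRNA transcription and processing, each line had 10 bound with DMSO and 18 with INX-315. Those bound in every library included FBL, NCL, NOP56, NOP58, UBTF and the RNA polymerase I subunits POLR1A and POLR1B. Of all genes, 26.8% and 24.8% were bound with DMSO in OVCAR-3 and Kuramochi, and 55.5% and 53.2% with INX-315. Both lists are short and were not tested against the members.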

How the data were processed

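Per the labels and the study's methods, the authors aligned reads to hg38 with Bowtie2 2.3.4.1 and called peaks in each library with MACS2 2.2.7.1 at a q-value of at most 0.05, against the IgG2a library of the line. The deposited lists give each peak's fold enrichment (a linear ratio), its −log10 p-value and q-value, and a display score that was not used. Peaks were joined to GENCODE release 44 with an overlap of at least 1 bp. Fold enrichment was compared on the log2 scale with exact permutation of treatment within lines (36 arrangements). The study's read-level test needs reads and was not run. Summit fragments were recovered from fold enrichment and p-value with a relative tolerance of 3e-05, which was possible for 98.6% to 100.0% of invertible Rb peaks and was tested on made-up peaks. Peak lists have no value for an uncalled promoter, so intensities were compared only for genes called in all 8 libraries. Sequence was read from hg38. Python 3.11.15, pandas 2.3.3, NumPy 2.4.6, SciPy 1.17.1, pysam 0.24.0 and matplotlib 3.10.9 were used.

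Genes were named by rule: members with a peak in all 8 libraries, bound under DMSO in both lines, gained in both lines, the 3 of highest rank gained in 1 line, the paralogues, and members with no peak. Others are marked where named. Some members that these rules take, and a promoter stretch, enter the counts but are not reported here. The members and gene lists were chosen with earlier results of these data known. Alternatives covered the q-value, the overlap, the starts, the list length, the scale, the replicate numbers and each library.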

Additional observations from a re-analysis of the deposited data

How the results depend on the processing

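Counts moved most with list length. Lists of equal length within a line gave a mean difference in members with a peak of -0.750 in place of 31.5. The members then bound under INX-315 were 12 in OVCAR-3 and 14 in Kuramochi, and those gained were 2 and 1 (2.47% and 1.23%, against 2.33% and 2.03% of all genes). With only peaks whose nearest start was the member's own, which was added after the data were seen, the difference was 22.8, the members bound in OVCAR-3 were 7 under DMSO (8.64%, against 21.1% of all genes) and 30 under INX-315 (37.0%, against 45.2%), and 3 of 4 (75.0%, against 87.3%) were higher under INX-315 without overlap in both lines. With fragments as multiples of the background, 8 of 8 were higher, against 97.1% of all genes. The causes were not tested, beyond the fewer peaks that each of the first 2 settings keeps by construction.

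Leaving out 1 library at a time gave a difference of 27.8 to 35.2, members bound under DMSO of 11 to 23 (OVCAR-3) or 19 to 33 (Kuramochi), members bound under INX-315 of 46 to 62 or 48 to 58, members gained of 21 to 35 or 17 to 28 in the same order, and 5 to 8 higher. A stricter q-value of at most 0.001, summits inside the promoter and canonical starts kept the direction between treatments and every count of members within 1.5 times. Against all genes, the q-value of at most 0.001 turned the order for members bound under INX-315 in OVCAR-3 (50.6% against 53.3%), for replicate 1 of INX-315 there (51.9% against 53.8%) and for replicate 2 of DMSO in Kuramochi (30.9% against 34.6%). The replicate numbers are shared between treatments, but nothing says that they pair libraries. With the replicate block, the difference was 31.5 and the number higher in all same-numbered pairs was 5. Without 1 of 2 libraries, a call needs the other library only, for members as for all genes. The shares of all genes gained under these settings are not given.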

Other observations

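Peaks inside member genes but outside any promoter window were few, with 0 in each DMSO library, 1 in each INX-315 library of OVCAR-3 (RPL39L, then RPS9) and 2 and 1 in those of Kuramochi (RPL36 and RPL37A, then RPS9). The genome also holds 1505 annotated ribosomal protein pseudogenes, most of them processed copies without the parent promoter. The number of them with a peak in OVCAR-3 was 0 in both DMSO libraries and 5 and 6 with INX-315, and in Kuramochi 1 and 2 with DMSO and 5 and 4 with INX-315, against 0 in both IgG2a libraries. Most of these peaks lay in the promoter of a protein-coding gene. The peaks on pseudogenes outside promoters numbered 0 in every DMSO library, 3 and 2 with INX-315 in OVCAR-3 and 1 and 0 with INX-315 in Kuramochi, of 577 to 4322 peaks outside promoters in each Rb library.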
